A study of Mus musculus with 2 samples.

Results

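The insulin-like growth factor (IGF) axis was followed through 10 genes in RNA sequencing of pituitaries from mouse embryos of day E12.5. They are the ligand gene Igf1, the receptor genes Igf1r and Insr, and the 7 binding protein genes Igfbp1 to Igfbp7. All were taken by symbol from the 55401 genes of the deposited tables, where all 10 were found. One sample came from wild-type embryos and the other from Dyrk2 knockout embryos (Dyrk2-/-), which lack a protein kinase of the DYRK family, and no further allele or agent is named in the labels. There was 1 library per genotype, so none of the differences reported could be tested against replicates. How many embryos went into a library, their sex and whether they were littermates were not given in the sources used here.

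IGF1 and IGF2 are secreted growth factors that signal mainly through the receptor tyrosine kinase IGF1R, while the insulin receptor binds insulin and one of its forms also binds IGF2. The secreted binding proteins IGFBP1 to IGFBP6 hold IGFs with high affinity, which limits access to the receptor, prolongs their life or delivers them locally. IGFBP7 is a distant relative with low affinity for IGFs that is known as a secreted protein of vessels and matrix. In the embryo IGF2 is the more widely made ligand, and growth hormone control of Igf1 sets in after birth.

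The 10 genes lie on 7 chromosomes, and 4 of them form neighbouring pairs. Igfbp2 (ENSMUSG00000039323) and Igfbp5 (ENSMUSG00000026185) face each other tail to tail on chromosome 1, at 72824503 to 72852474 (plus strand) and 72857932 to 72874884 (minus strand), with 5.46 kb between their ends, and Igfbp1 and Igfbp3 face each other likewise on chromosome 11 with 3.54 kb between them. Sequence before the start is shown for the 4 genes that carry most of what follows: the 3 most abundant binding proteins and Igfbp7, the one member past 1.5-fold. Each run holds the 250 bases upstream of the RefSeq start on GRCm38.p6, read 5′ to 3′ on the strand of the gene. Igfbp2 has 2 RefSeq windows, of which only the first listed was read, here and in the counts below. They are chr1:72824230-72824479 (plus strand) for Igfbp2, chr1:72874866-72875115 (minus) for Igfbp5, chr11:99040994-99041243 (plus) for Igfbp4 and chr5:77408046-77408295 (minus) for Igfbp7. Capitals mark a TATA element (TATAAA or TATTTAA) or a GC box (GGGCGG), on either strand.
Igfbp2: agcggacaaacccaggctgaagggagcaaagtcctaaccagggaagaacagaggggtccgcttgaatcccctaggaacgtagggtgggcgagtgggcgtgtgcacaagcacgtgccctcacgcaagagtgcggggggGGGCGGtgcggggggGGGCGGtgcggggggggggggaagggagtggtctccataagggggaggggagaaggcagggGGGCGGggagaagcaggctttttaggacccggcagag
Igfbp5: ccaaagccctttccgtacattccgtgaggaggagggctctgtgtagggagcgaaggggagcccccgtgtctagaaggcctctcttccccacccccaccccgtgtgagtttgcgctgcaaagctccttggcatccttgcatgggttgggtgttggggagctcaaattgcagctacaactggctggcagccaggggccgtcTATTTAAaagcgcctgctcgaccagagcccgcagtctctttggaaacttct
Igfbp4: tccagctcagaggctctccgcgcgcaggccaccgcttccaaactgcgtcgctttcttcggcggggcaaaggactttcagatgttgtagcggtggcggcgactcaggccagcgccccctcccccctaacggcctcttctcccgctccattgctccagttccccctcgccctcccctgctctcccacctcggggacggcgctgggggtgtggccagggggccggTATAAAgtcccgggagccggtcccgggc
Igfbp7: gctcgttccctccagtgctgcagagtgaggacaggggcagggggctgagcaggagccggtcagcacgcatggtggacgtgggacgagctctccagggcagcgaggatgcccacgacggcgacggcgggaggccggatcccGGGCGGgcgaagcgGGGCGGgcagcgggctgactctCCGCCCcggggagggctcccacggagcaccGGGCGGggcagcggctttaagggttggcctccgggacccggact

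The 4 upstream runs fall into different types. The windows of Igfbp2 and Igfbp7 held 3 and 4 GC boxes and no TATA element, and those of Igfbp4 and Igfbp5 held 1 TATA element, starting 28 and 51 bases before the start, and no GC box. Of the 9 members with a RefSeq window, 3 held a GC box (Igfbp2, Igfbp7 and Igf1r), against 32.7% of all 32851 windows of this length. A TATA element was found in 3 (Igfbp4, Igfbp5 and, on the opposite strand, Igfbp6), against 15.6% of all windows. The spelling TATTTAA was added after the Igfbp5 sequence had been read. The Gli core ACCACCC, the forkhead core TGTTTAC and the CArG box, searched on both strands, were in none of the 9 windows and in 3.92%, 3.17% and 1.47% of all windows. A match is only a run of letters, and so is its absence. No entry was found for Insr.

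Levels are given as FPKM, the fragments of a gene per kilobase of its exons relative to the total counted, which can be compared between genes of a library. The libraries held 20045230 and 20115802 counted fragments, so that a single fragment adds 0.0499 or 0.0497 FPKM to a gene of 1 kb. All intervals are exact 95% intervals for counting error, and they leave out how embryos and dissections vary. Dyrk2 itself measured 11.5 FPKM in the wild-type and 1.93 FPKM in the knockout library, a plain ratio of 0.168 (0.146 to 0.192). Pituitary pouch markers were present throughout, with all 14 listed genes above 1 FPKM, Pitx1 at 250.4 and 227.1 FPKM and Epcam at 194.5 and 193.2 FPKM. The libraries also differed in sex makeup: Xist, expressed from the inactive X chromosome, measured 74.98 and 14.8 FPKM, and the Y-linked Ddx3y 5.83 and 14.95 FPKM. Sex makeup and genotype cannot be told apart for any gene below.

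The axis in this tissue was dominated by binding proteins. In the wild-type library Igfbp2 stood highest at 193.9 FPKM (interval 189.4 to 198.4), followed by Igfbp5 at 170.55 FPKM, Igfbp4 at 86.7 FPKM and Igfbp3 at 40.9 FPKM. Igfbp2 was the 129th and Igfbp5 the 160th most abundant of all 55401 genes there. Igfbp7 came next at 19.5 FPKM, then the receptors Igf1r at 10.35 FPKM and Insr at 5.38 FPKM. Igf1 at 1.40 FPKM and Igfbp6 at 1.30 FPKM shared the next place, since their intervals (1.24 to 1.575 and 0.871 to 1.87) overlap. Igfbp1 was close to absent, with 2 fragments in the wild-type library, a level of 0.0700 FPKM, and 0 in the knockout library. There the interval of a count of 0 reaches 0.120 FPKM, and a floor of 3 fragments equals 0.0978 FPKM.

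The order in the knockout library was the same but for 1 exchange. Igfbp2, Igfbp5, Igfbp4 and Igfbp3 again led, at 217.5, 153.45, 103.7 and 36.6 FPKM, and none of their neighbouring intervals overlapped in either library. Igfbp7, in the fifth place in the wild-type library, stood beside Igf1r, at 8.18 FPKM (7.09 to 9.40) against 9.35 FPKM (9.03 to 9.68), and these intervals overlap. Insr, Igf1, Igfbp6 and Igfbp1 kept the last 4 places.

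**Figure D1:**
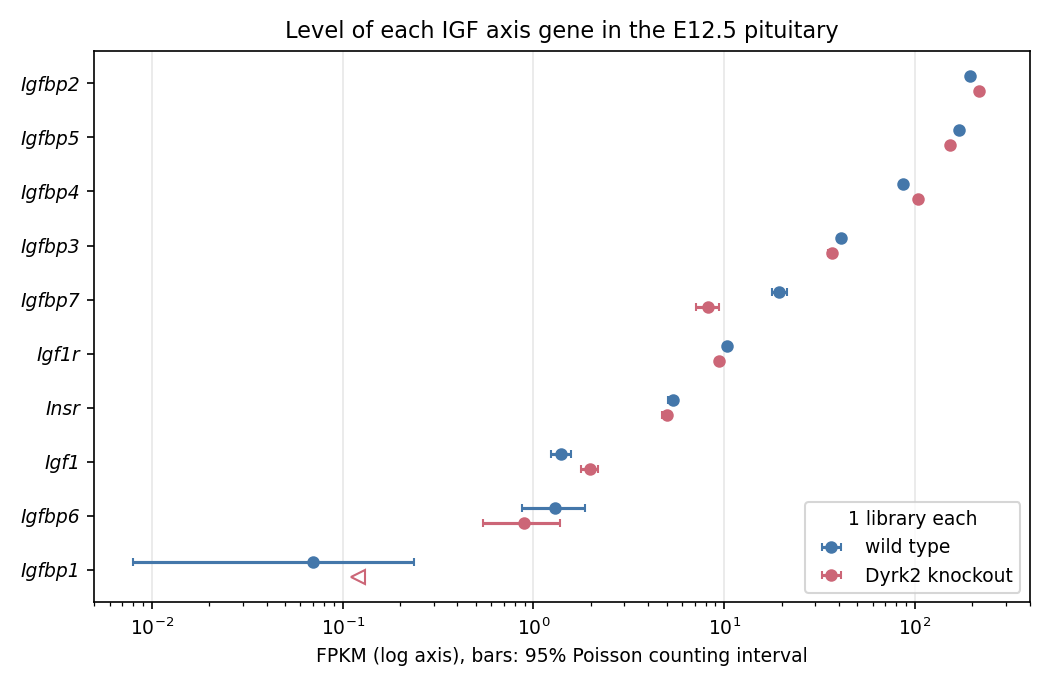
FPKM of the 10 IGF axis genes on a log axis, in the wild-type library (blue) and the Dyrk2 knockout library (red), with 95% Poisson counting intervals. The open triangle is the upper limit of Igfbp1, which had 0 fragments in the knockout library. Igfbp7, at 19.5 and 8.18 FPKM, is the only gene above 5 FPKM whose points lie far apart.

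Genes that reached 1 FPKM in either library were compared as log2 of knockout over wild type after 0.5 FPKM was added to both. This left 9 members, all but Igfbp1, and Igfbp6 passed through its wild-type level only. Igfbp7 was at least 1.5-fold lower, the only member past that size, in a background where 4.56% of 14000 genes were that much lower. No member was at least 1.5-fold higher, against 2.06% of all genes. The median log2 ratio of the 9 was -0.14, beside -0.02 for all 14000.

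Smaller differences went both ways. The counting interval of the plain ratio lay above 1 for 3 members, Igf1, Igfbp2 and Igfbp4 (17.7% of all genes), and below 1 for 5, Igf1r, Insr, Igfbp3, Igfbp5 and Igfbp7 (22.3% of all genes). It excluded 1 in either direction for 40.0% of all genes. The intervals narrow as fragments increase, so abundant genes exclude 1 at small differences: among the 5152 genes with at least 1000 fragments in both libraries 48.9% did. The 6 members of that depth (Igf1r, Insr, Igfbp2, Igfbp3, Igfbp4 and Igfbp5) all did. Without replicates, such small ratios cannot be separated from the spread between samples.

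**Figure D2:**
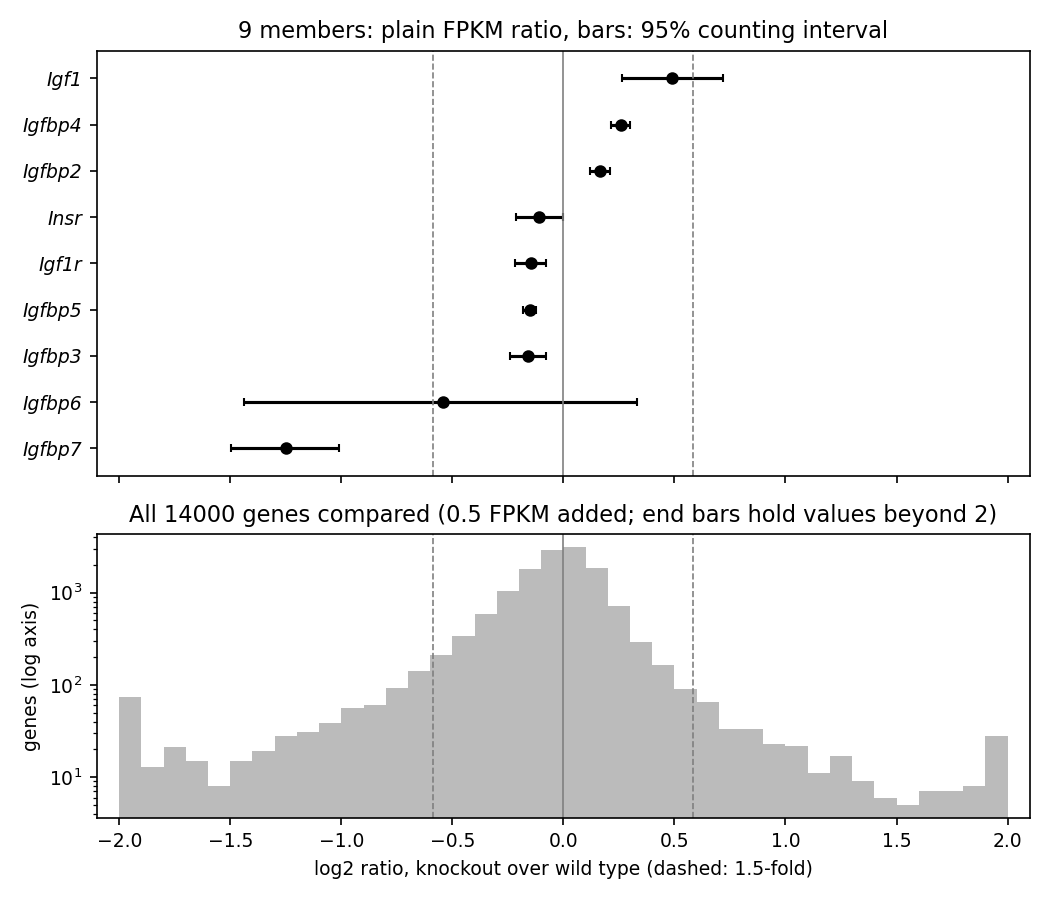
Upper panel: plain FPKM ratio of knockout over wild type, on a log2 axis, for the 9 members above 0 in both libraries, with 95% counting intervals. Lower panel: number of genes (log axis) by log2 ratio with 0.5 FPKM added, for all 14000 genes compared, with dashed lines at 1.5-fold. Igfbp7 lies beyond the lower line with its whole interval, and the other members lie between the lines by their points.

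Of the ligands, Igf1 was higher and Igf2 lower in the knockout library. Igf1 (ENSMUSG00000020053), at 87858265 to 87937042 of chromosome 10 (plus strand), measured 1.40 FPKM (278 fragments) and 1.97 FPKM (392 fragments). Its level was thus 1.41-fold higher (1.20 to 1.64), with FPKM intervals of 1.24 to 1.575 and 1.78 to 2.17 that do not overlap. Igf2, the other IGF ligand and not among the 10, measured 46.6 and 26.1 FPKM, 1.79-fold lower (1.71 to 1.87). Igf2 therefore stood 33.3-fold (29.5 to 37.7) above Igf1 in the wild-type library and 13.3-fold (11.9 to 14.8) in the knockout library. The insulin genes gave no level to compare: Ins1 was at 0 in both libraries and Ins2 had 2 fragments and 0.

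The receptors were near level. Igf1r (ENSMUSG00000005533), which transmits both IGF signals, spans 67952827 to 68233668 on chromosome 7 (plus strand) and measured 10.35 and 9.35 FPKM, a ratio of 0.903 (0.861 to 0.948). Insr (ENSMUSG00000005534), the insulin receptor, spans 3122061 to 3279617 on chromosome 8 (minus strand) and measured 5.38 and 4.99 FPKM. Its ratio of 0.928 had an interval of 0.862 to 0.999, which ends at equality, and it included 1 with the knockout library rescaled by a trimmed mean or by the upper quartile. Both receptors were lower by a similar factor, so Igf1r stood 1.92-fold (1.81 to 2.05) above Insr in the wild-type library and 1.87-fold (1.76 to 2.0) in the knockout library. Igf2r, the scavenger receptor that removes IGF2, measured 28.8 and 31.0 FPKM, and was the most abundant receptor gene in both libraries. Insrr, an orphan relative of Insr, was low at 0.490 and 0.110 FPKM (56 and 13 fragments).

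Among the binding proteins, Igfbp7 stood apart from the other members in size. Igfbp7 (ENSMUSG00000036256) spans 77349240 to 77408041 on chromosome 5 (minus strand). It measured 19.5 FPKM (17.8 to 21.3, 472 fragments) in the wild-type and 8.18 FPKM (7.09 to 9.40, 199 fragments) in the knockout library. The FPKM intervals lie far apart, and the level was 2.38-fold lower (2.01 to 2.82), a log2 ratio of -1.20. That ratio ranked 193 from the bottom among the 14000 genes. Of its 1209 exon bases 85 overlap Polr2b, a gene of the opposite strand that codes for an RNA polymerase subunit and measured 38.85 and 40.8 FPKM. Whether the counting used strand is not given, so some fragments of either gene could have been counted for the other.

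Igfbp2 and Igfbp4 were higher in the knockout library. Igfbp2, the most abundant binding protein, measured 193.9 FPKM (7178 fragments) and 217.5 FPKM (8082 fragments), a ratio of 1.12 (1.09 to 1.16). Igfbp4 (ENSMUSG00000017493), which inhibits IGF action until it is cleaved, spans 99041244 to 99054392 on chromosome 11 (plus strand). It measured 86.7 FPKM (7674 fragments) and 103.7 FPKM (9211 fragments), a ratio of 1.20 (1.16 to 1.23). These are small differences from large counts, and neither reached 1.5-fold.

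Igfbp5 and Igfbp3 were lower by about the same factor. Igfbp5, a binding protein that also attaches to matrix, measured 170.55 FPKM (20533 fragments) and 153.45 FPKM (18539 fragments), a ratio of 0.900 (0.882 to 0.918). Igfbp3 (ENSMUSG00000020427), at 7206086 to 7213923 of chromosome 11 (minus strand), carries most circulating IGF after birth. It measured 40.9 FPKM (2565 fragments) and 36.6 FPKM (2304 fragments), a ratio of 0.895 (0.846 to 0.947). Igfbp5 stood 4.17-fold above Igfbp3 in the wild-type and 4.19-fold in the knockout library, with intervals (4.0 to 4.35 and 4.02 to 4.38) that overlap almost fully. The tail-to-tail neighbours Igfbp2 and Igfbp5, whose upstream sequences are printed above, had ratios on opposite sides of 1. Igfbp2 stood 1.14-fold (1.11 to 1.17) above Igfbp5 in the wild-type and 1.42-fold (1.38 to 1.46) in the knockout library.

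Igfbp6 and Igfbp1 were too weakly counted to compare. Igfbp6 (ENSMUSG00000023046), a binding protein that prefers IGF2, spans 102144362 to 102149511 on chromosome 15 (plus strand). It measured 1.30 FPKM (29 fragments) and 0.890 FPKM (20 fragments), a ratio of 0.687 whose interval, 0.368 to 1.26, includes 1. Igfbp1 (ENSMUSG00000020429), a liver product responsive to insulin after birth, spans 7197782 to 7202546 on chromosome 11 (plus strand). With 2 fragments and 0, both libraries lie at or under the floor of 3 fragments, and no fold is given.

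The summed level of the 7 Igfbp genes was nearly the same in both libraries, at 512.9 and 520.3 FPKM, while its makeup differed. Igfbp2 made up 37.8% of the sum in the wild-type and 41.8% in the knockout library, and Igfbp4 16.9% and 19.9%. Igfbp5 made up 33.3% and 29.5%, Igfbp3 7.97% and 7.03%, and Igfbp7 3.80% and 1.57%. The 4 most abundant genes together held 95.9% and 98.3%. Differences in Igfbp2 and Igfbp4 thus offset those of the other members in the sum.

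**Figure D3:**
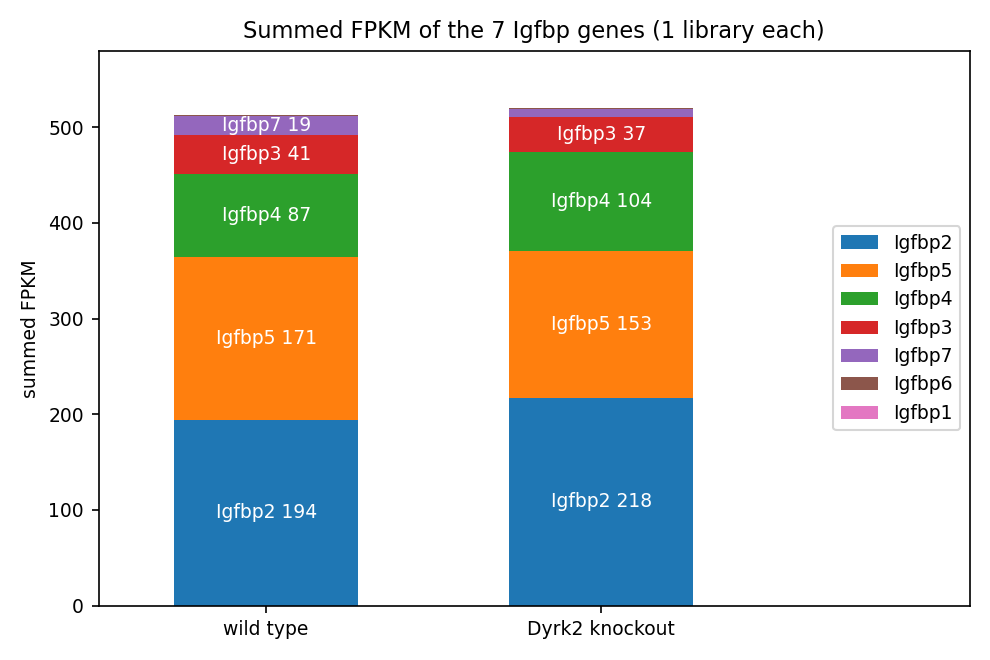
Summed FPKM of the 7 Igfbp genes in each library, stacked by gene, on an axis from 0. The bars reach 512.9 FPKM in the wild-type and 520.3 FPKM in the knockout library, with a thicker Igfbp2 and Igfbp4 part and a thinner Igfbp7 part in the latter.

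The other genes of the axis were taken from 10 lists of 105 genes in all, chosen with earlier results of these data known. Of the 88 with at least 1 FPKM, 1 was at least 1.5-fold higher (2.06% of all genes) and 7 were at least 1.5-fold lower (4.56% of all genes). Their median log2 ratio was 0.00, beside -0.02 for all genes. Of the 88, 3 passed 1 FPKM in the wild-type library only and 2 in the knockout library only.

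The gene that was higher was Pappa, which encodes a secreted protease that cleaves IGFBP4 and IGFBP5 and so frees IGF. Pappa measured 0.050 FPKM (11 fragments) and 1.40 FPKM (311 fragments), a ratio of 28.2 (15.5 to 57.0). Pappa passed through its knockout level only and has a mean of both libraries under 1 FPKM. Rounding of the deposited values leaves the lower count uncertain by about 1 fragment. Its relative Pappa2 was low in both libraries, at 0.170 and 0.300 FPKM. Stc1 and Stc2, which encode inhibitors of these proteases, measured 1.78 and 2.88 FPKM and 0.810 and 1.23 FPKM. Their plain ratios of 1.61 (1.31 to 1.99) and 1.52 (1.14 to 2.02) fell under 1.5-fold once 0.5 FPKM was added. Pappa2, Stc1 and Stc2 were singled out after their values were seen. Of 10 measured proteases and inhibitors, the counting interval lay above 1 for 4 (17.7% of all genes) and below 1 for 3 (22.3% of all genes). Of the 10, 1 was lower by 1.5-fold: Adam12, a membrane protease that cleaves IGFBP3 and IGFBP5, at 2.31 and 1.29 FPKM. Adam12 came under 1.5-fold with a pseudocount of 2 FPKM and is left out by a filter of 5 FPKM. The most abundant of the list were Mmp14 at 39.0 and 33.8 FPKM, Mmp2 at 27.45 and 24.2 FPKM and Adam9 at 18.4 and 18.9 FPKM. Mmp14 and Mmp2 are matrix metalloproteases, and Adam9 is a membrane protease.

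Of 13 listed genes for proteins that share the cysteine-rich N-terminal domain of the IGFBPs, 9 passed 1 FPKM, 2 of them at least 1.5-fold lower and 0 higher. Htra1, Htra3 and Esm1 passed through their wild-type level only, so the median log2 ratio of -0.49 over the 9 depends on the filter. It was -0.01 over the 6 genes with a mean of both libraries of at least 1 FPKM, -0.08 over all 13 and 0.12 over the 3 that reached 5 FPKM. Htra1, a secreted serine protease, measured 1.52 and 0.360 FPKM (88 and 21 fragments), 4.20-fold lower (2.59 to 7.13). Ccn4, a matrix signalling protein, measured 4.45 and 2.30 FPKM, 1.94-fold lower (1.66 to 2.26). The other 7 lay within 1.5-fold, among them Ccn1 at 8.65 and 9.48 FPKM, Crim1 at 4.87 and 5.41 FPKM and Ccn2 at 5.55 and 3.81 FPKM. The number lower was 4 with a pseudocount of 0.1 FPKM and 1 with a pseudocount of 2 FPKM, where Htra1 came under 1.5-fold.

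Inside the cell, most transcripts of the signalling chain lay within 1.5-fold. The kinase cascade had 28 listed genes, each within 1.5-fold, and their log2 ratios spanned -0.29 to 0.36. The counting interval lay above 1 for 7 of the 28 (17.7% of all genes) and below 1 for 3 (22.3% of all genes). Akt1, a kinase that carries the signal of both receptors, measured 90.3 and 90.5 FPKM, and Gsk3a, which encodes a kinase that Akt inhibits, 42.8 and 42.7 FPKM.

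Of the 15 adaptors that couple the receptors to these kinases, 13 lay within 1.5-fold and 2 were lower. Irs4, an insulin receptor substrate, measured 88.1 FPKM (11118 fragments) and 53.8 FPKM (6812 fragments), 1.64-fold lower (1.59 to 1.69). Irs4 was the most abundant substrate gene of the list in both libraries, with Irs2 at 20.2 and 19.9 FPKM and Irs1 at 4.93 and 5.82 FPKM (the latter pair named after their values were seen). Gab1, a docking protein, measured 26.55 and 17.45 FPKM, 1.52-fold lower (1.43 to 1.62), and came under 1.5-fold with a pseudocount of 2 FPKM and with the trimmed mean or upper quartile scaling. Grb10, an imprinted inhibitor of both receptors, was the most abundant adaptor, at 116.2 and 131.7 FPKM, and Crk measured 52.7 and 54.3 FPKM.

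FOXO factors, which the pathway keeps out of the nucleus, and genes known as their targets had a median log2 ratio of -0.16 over 14 measured genes. One was lower by 1.5-fold: Txnip, which encodes a thioredoxin-binding protein, at 67.2 and 44.1 FPKM, a difference that came under 1.5-fold with the trimmed mean scaling. Cited2, a transcriptional coregulator, measured 39.3 and 34.9 FPKM, and Trib2, a pseudokinase gene, 35.8 and 24.3 FPKM. On the growth hormone side, Gh and Ghrhr were at 0 in both libraries, where 3 fragments of Gh would equal 0.174 FPKM. Ghr, the receptor gene, measured 3.33 and 2.38 FPKM, a ratio of 0.714 (0.630 to 0.810). It was 1 of the 5 measured genes of this list whose interval excluded 1, against 40.0% of all genes. Jak2, the kinase of that receptor, measured 12.4 and 12.8 FPKM. Stat5b, its transcription factor, measured 5.98 and 5.63 FPKM and Socs2, its feedback inhibitor, 3.0 and 3.24 FPKM. Transcripts of the 5 listed proteins tied to Igf2 mRNA all lay within 1.5-fold, with Igf2bp2 at 31.6 and 34.2 FPKM and Igf2bp3 at 24.3 and 28.7 FPKM. Hmga2, of the same list, measured 86.5 and 73.2 FPKM.

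**Figure D4:**
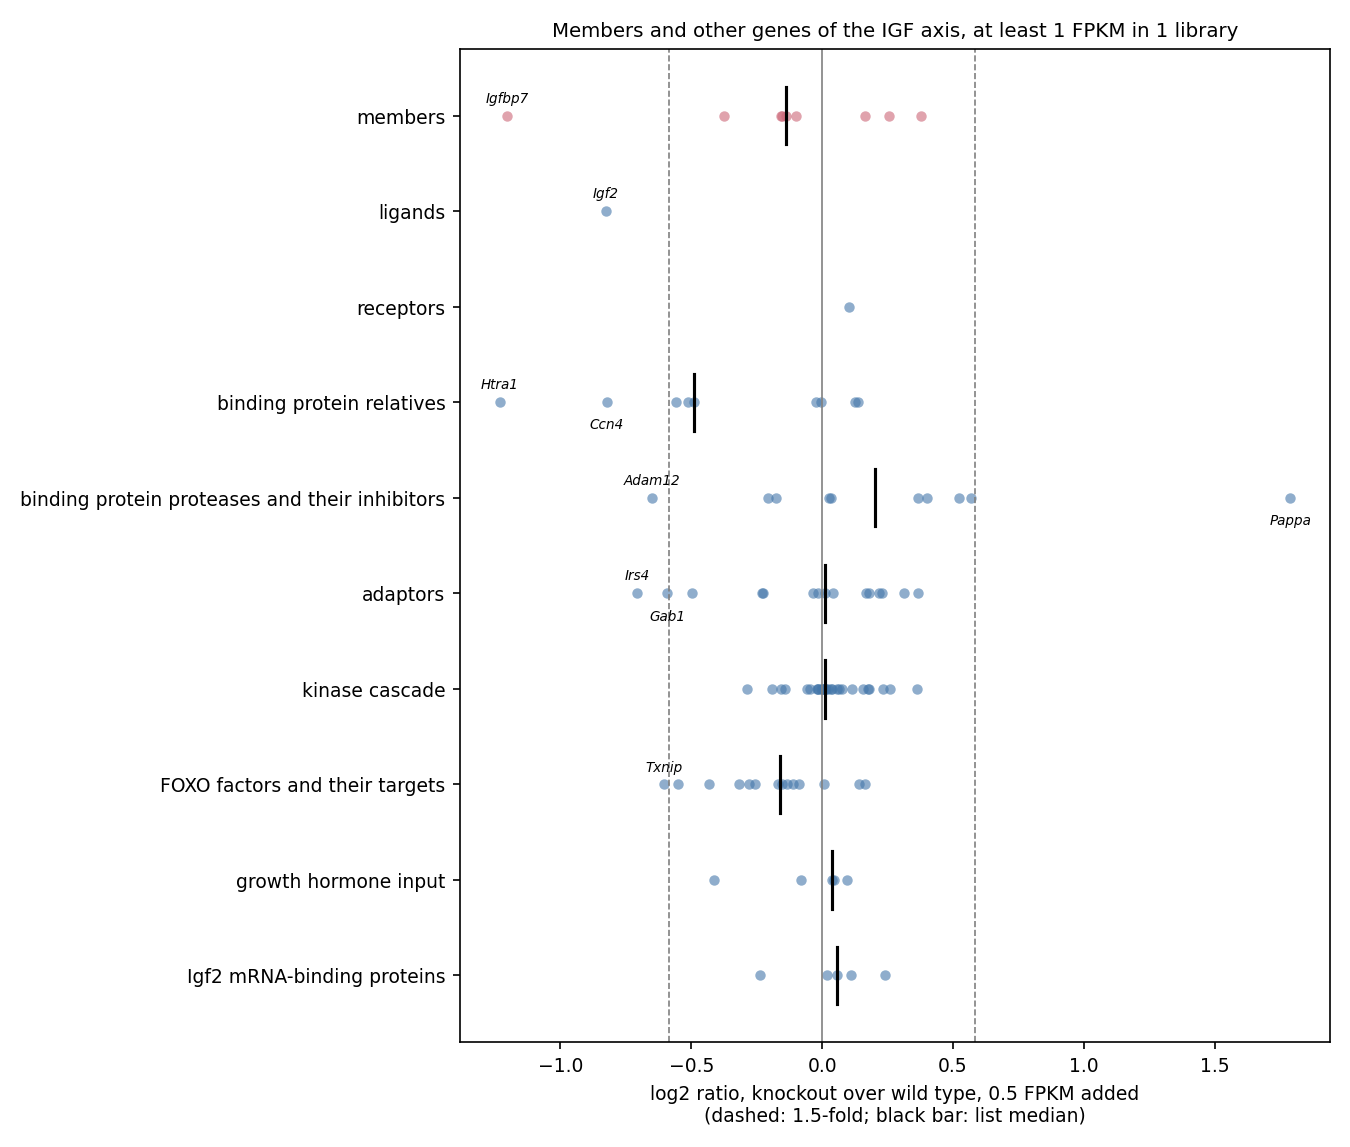
Log2 ratio of knockout over wild type, with 0.5 FPKM added, for the 9 members compared (red) and the other IGF axis genes by list (blue), each point 1 gene of at least 1 FPKM in 1 library. Black bars are medians of lists with over 2 points and dashed lines 1.5-fold. Pappa is the one point beyond the upper line, Igfbp7, Igf2 and Htra1 are among those beyond the lower line, and all 28 kinase cascade genes lie between the lines.

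The IGFBPs are made by different cell types of the pituitary and its surroundings, and in whole tissue fewer cells of a type and less RNA per cell cannot be told apart. Markers of endothelium, a known source of IGFBP7, had a median log2 ratio of 0.09, and all 15 lay within 1.5-fold with 0.5 FPKM added. Their summed level was 155.7 and 172.6 FPKM and none was at 0. Plvap, a protein of fenestrated endothelium, measured 27.3 and 35.95 FPKM, and the endothelial cadherin Cdh5 24.1 and 28.1 FPKM. The counting interval lay above 1 for 6 of the 15 (17.7% of all genes) and below 1 for 2 (22.3% of all genes). Those 2 were Cldn5 at 17.2 and 14.4 FPKM, a ratio of 0.838, and Sox17 at 1.70 and 1.02 FPKM. The plain ratio of Sox17 was 0.599 (0.4615 to 0.774), past 1.5-fold without the added 0.5 FPKM. Markers of pericytes and smooth muscle were mostly lower. Of 11 listed, 8 passed 1 FPKM, with a median log2 ratio of -0.60. Of these 8, 4 were lower by 1.5-fold or more (4.56% of all genes) and 4 lay within. The counting interval lay below 1 for 7 of the 8 (22.3% of all genes) and above 1 for 0 (17.7% of all genes). The summed level of the list was 123.0 and 76.1 FPKM with none at 0. The 4 lower were Acta2 (actin of smooth muscle) at 25.65 and 1.58 FPKM, Tagln at 9.34 and 2.38 FPKM, Pdgfrb at 17.7 and 8.50 FPKM and Kcnj8 at 4.80 and 2.73 FPKM. The pericyte receptor gene Notch3 was level at 48.1 and 48.0 FPKM, and Abcc9 and Rgs5 had ratios of 0.849 and 0.761. Cspg4, with a ratio of 0.590 (0.485 to 0.716), passed through its wild-type level only. Des, Myh11 and Cnn1 were below 1 FPKM in both libraries. Des measured 0.540 and 0.850 FPKM, a ratio of 1.56 (1.03 to 2.36). Myh11 went the other way at 0.95 and 0.05 FPKM (145 and 8 fragments), a ratio of 0.0550 (0.0233 to 0.111). So did Cnn1, at 0.53 and 0.02 FPKM (29 fragments and 1).

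Mesenchyme and neural crest markers split, with 8 of 19 measured lower by 1.5-fold and 4 higher. Their sum was 336.1 and 241.6 FPKM, with Tcf21 alone at 0, in the knockout library, against 1.61 FPKM in the wild-type library. Those higher included the homeobox genes Alx1 at 0.180 and 4.29 FPKM, Alx4 at 0.490 and 1.51 FPKM and Prrx1 at 0.830 and 1.67 FPKM. Col3a1, a fibrillar collagen, measured 91.7 and 62.1 FPKM and Msx1, a homeobox gene, 57.5 and 48.3 FPKM. Erythroid markers summed to 2444 and 1872 FPKM, with 2 of 10 measured at least 1.5-fold lower (Hbb-bs and Epor). Epor, at 1.18 and 0.50 FPKM, passed through its wild-type level only. The embryonic globins measured 1675 and 1285 FPKM (Hbb-y) and 293.9 and 227.7 FPKM (Hba-x). Macrophage markers, from cells that can also make Igf1, summed to 40.4 and 35.5 FPKM, with 1 of 10 measured lower (Tyrobp at 5.31 and 3.20 FPKM) and none higher by 1.5-fold, and C1qb at 7.38 and 7.54 FPKM and C1qa at 6.33 and 5.21 FPKM.

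Other tissues were covered by the remaining lists. Pouch epithelium markers summed to 1344 and 1232 FPKM with 13 of 14 within 1.5-fold and Lhx4 lower at 8.61 and 5.52 FPKM. Hypothalamus and infundibulum markers summed to 130.2 and 118.0 FPKM, with 8 of 9 measured within 1.5-fold. Vax1 was higher at 0.670 and 1.96 FPKM but passed through its knockout level only. Nkx2-1 measured 25.9 and 25.3 FPKM and Fgf10 28.5 and 25.5 FPKM. Neuronal markers had a median log2 ratio of 0.26 over 9. The counting interval lay above 1 for 7 of the 9 (17.7% of all genes) and below 1 for 2, Nefl and Nefm (22.3% of all genes). Tubb3 measured 15.9 and 23.05 FPKM and Nefl 50.0 and 34.0 FPKM. Nefm was the 1 gene lower by 1.5-fold, at 16.8 and 9.19 FPKM. Cartilage markers had a median of -0.17 over 6, 2 of which passed through their wild-type level only, with Col2a1 at 141.2 and 121.2 FPKM and Col11a1 at 20.25 and 20.5 FPKM. Matn4, the 1 cartilage marker past 1.5-fold, measured 3.30 FPKM (342 fragments) and 0.180 FPKM (19 fragments), 18.1-fold lower (11.4 to 30.4). Matn1 had 4 fragments and 0. Skeletal muscle was at trace level, with 1 of 10 genes above 1 FPKM, Tnnt1 at 2.04 and 2.19 FPKM, Actc1 at 0.090 and 0.40 FPKM, Myf5 at 0 in both libraries and Acta1 at 0 in the knockout library. Marker genes named for passing 1.5-fold were chosen after their values were seen, as were Des, Myh11, Cnn1, Abcc9, Rgs5, Cspg4, Cldn5, Sox17 and Ghr. The part of these cell types in the levels of Igfbp7, Igf1 or any other member was not tested.

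**Figure D5:**
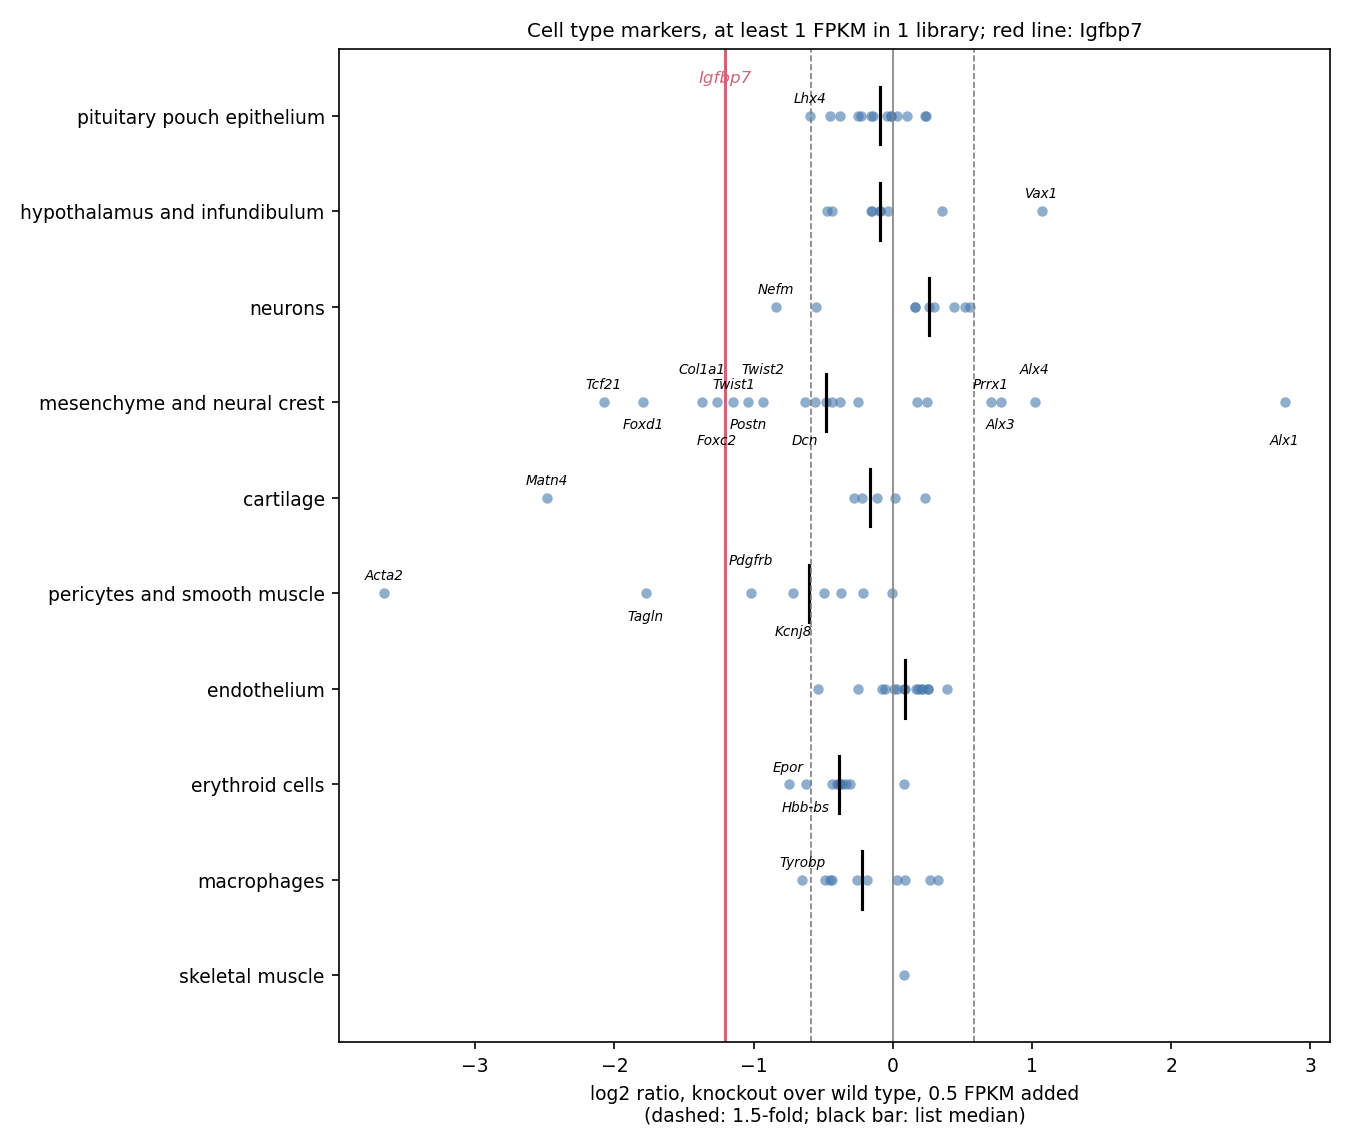
Log2 ratio of knockout over wild type, with 0.5 FPKM added, for cell type markers of at least 1 FPKM in 1 library, each point 1 gene, with list medians in black. The red line is Igfbp7, at -1.20, beside which the endothelial markers lie between -0.53 and 0.39 and the pericyte and smooth muscle markers between -3.65 and -0.00.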

How the data were processed

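The data are polyA-selected, stranded RNA sequencing libraries of E12.5 mouse pituitaries, per the labels' protocols, with 1 library from each genotype label. The authors deposited a table of FPKM and exon length per library, per the file headers. The submitters' processing notes name GRCm38 as the build, HISAT2 2.0.1 and cutadapt 1.9.1, while the fragment counter, its strand setting and the annotation were not given in the sources used here. Symbols came from GENCODE M21, which matched 55141 of 55401 identifiers, and its summed exon length equalled the deposited one for all 10 members.

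FPKM times exon length moves in whole fragments: all 1512 and 1372 values checked (at most 100 fragments) were whole within 0.1 fragment, which gave the depths. Intervals are exact 95% Poisson (levels) and Clopper-Pearson (ratios of genes between or within libraries) intervals over these fragments, computed with scipy 1.17.1. No count model was run. Ratios with 0.5 FPKM added understate low genes. Steps were checked on simulated data.

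The members and lists were chosen with earlier results of these data known. Named genes were the members, Dyrk2, list genes past 1.5-fold, the 3 most abundant of each axis list and 2 of each marker list, and neighbours in the genome, some of which are not reported here; Xist, Ddx3y and those said to be so were chosen after their values were seen. Alternatives were pseudocounts of 0.1 and 2 FPKM, a filter of 5 FPKM or none, 3 scalings and, for all genes, a minimum of 200 exon bases.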

Additional observations from a re-analysis of the deposited data

How the results depend on the processing

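Under the 5 alternative pseudocounts and scalings, the log2 ratios of the 9 members above 0 in both libraries moved by less than their counting error. Neither kind of alternative could turn their signs, since all lie farther from 0 than the scalings shift. Igfbp7 ranged from -1.24 to -1.08 and Igf1 from 0.22 to 0.47. With a pseudocount of 2 FPKM, 132 of all genes were at least 1.5-fold higher and 301 lower, against 289 and 638. A filter of 5 FPKM left 60 and 178, and no filter gave 622 and 1192. Of the other axis genes, 2 were higher with a pseudocount of 0.1 FPKM or the trimmed mean scaling (1 in the text) and 0 with a filter of 5 FPKM or on a mean of 1 FPKM (a filter chosen after the data were seen). The number lower was 4 (7 in the text) with a pseudocount of 2 FPKM and likewise with a filter of 5 FPKM. The scalings multiplied the knockout library by 0.999 to 1.015. The count of members with an interval below 1, examined under the scalings after the data were seen, was 4 to 5 with Insr the one that varied, and 3 above 1 each time. No paired analysis was possible because each genotype has a single library, and none could be left out. Depth limits Igfbp1 and Igfbp6, with 2 and 29 fragments in the wild-type library.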

Other observations

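Top2a, a chromosome topoisomerase gene 17.1 kb before Igfbp4, measured 58.1 and 68.5 FPKM, a ratio of 1.18 (1.15 to 1.21) beside 1.20 for Igfbp4, while Tns4 on the other side was low at 0.140 and 0.220 FPKM. Rpl37a, a ribosomal protein gene 111 kb before Igfbp2, measured 186.4 and 172.65 FPKM, below equality where Igfbp2 was above. Noa1, 39.2 kb from Igfbp7, measured 8.21 and 7.37 FPKM, a ratio of 0.897 (0.802 to 1.0) against 0.420 for Igfbp7. Tns3, 1220 kb from Igfbp3, measured 10.3 and 10.7 FPKM, and Ttc23, 190 kb from Igf1r, 5.40 and 5.47 FPKM. Spryd3, 8.13 kb from Igfbp6, measured 7.86 and 6.54 FPKM.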
